A study of Mus musculus with 5 samples.

Results

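The collagen gene family was taken as every gene on the array whose symbol names a collagen alpha chain (Col, a type number, a and a chain number), which gave 44 of 23185 named genes. All 44 were described by class, as fibrillar chains (11 genes), network-forming chains (9), fibril-associated collagens with interrupted triple helices (FACIT, 9) and the other types (15). RNA came from 5 clones, each grown from a single cell of the osteocyte-like mouse line Ocy454, and 1 Affymetrix array was run for each. Of 37 clones screened for Sost, the gene of the secreted Wnt inhibitor sclerostin, the authors profiled 12H and 15H as the highest in Sost (high-Sost clones) and 4L, 9L and 24L as low (low-Sost clones). All 5 clones were kept for 7 days at 37 °C in the same serum-containing medium and none received a treatment. Each group is thus a handful of clones of 1 line with no parental culture among the arrays and precision is limited by how few arrays there are.

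Collagens are built from 3 alpha chains wound into a triple helix, either of 1 chain, as in type III, or of the products of several genes, as in most of type I. Fibrillar types I, II, III, V and XI form the banded fibrils of bone, tendon and cartilage, network types IV and VIII form sheets, and FACIT types sit on fibril surfaces. Bone matrix made by osteoblasts and osteocytes is mostly type I collagen. Values are expression on the log2 scale after robust multi-array averaging (RMA), in which a step of 1 is a 2-fold step. They are compared between clones and not between genes, because probes differ in brightness. As a guide to background, 1354 olfactory and vomeronasal receptor genes had a 95th percentile of 3.37 to 3.56, depending on the clone. Of the 44 collagen genes, 33 lay above it in every clone, 9 in no clone and 2, Col15a1 and Col6a5, in some. Of all 23185 genes, 12944 lay above it in every clone, 8664 in none and 1577 in some. The 33 include Col7a1 and Col26a1, which held 1 value on all arrays, so a place above the percentile is not proof of expression. The array medians lay between 4.13 and 4.16, and Sost itself read 4.08 in 12H and 3.92 in 15H against 3.78 for 4L, 3.89 for 9L and 3.91 for 24L. The labelled groups thus kept their order in Sost, but the nearest clones of the groups read nearly the same. Of 10 osteoblast and osteocyte markers measured, 5 lay above the receptor percentile in every clone and Mepe in none.

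No collagen gene passed limma's test between the groups (0 higher and 0 lower at an adjusted p under 0.05), as was the case for all genes, where the share called was 0.0%. The smallest adjusted p of a collagen gene was 0.572. At an unadjusted p under 0.05, 5 collagen genes were higher and 1 was lower in the high-Sost clones, against 3.07% and 2.71% of all genes (5.78% in either direction). An equal-variance test without moderation gave 4 higher and 0 lower at that limit, and 0 collagen genes at an adjusted p under 0.05. By size, Col5a2 and Col11a2 were at least 2-fold higher without overlap between the clones of the groups, and Col3a1, Col8a1 and Col12a1 at least 2-fold lower. These 2 and 3 of 44 genes stand beside 0.867% and 0.983% of all genes (1.85% in either direction). Among the 12 collagen genes with a mean of 6 or more the same rule gave 1 and 3, beside 1.37% and 1.59% of the 7807 genes with such a mean. With no limit on size, 5 collagen genes were higher and 5 lower without overlap, beside 8.26% and 7.75% of all genes. The median difference over the 44 genes was 0.009, against 0.00 over all genes, with 23 genes above 0, 18 below and 3 at 0. Of all 23185 genes, 11328 lay above 0, 10572 below and 1285 at 0. The number of larger calls moved with single clones, with 4 higher genes without 15H (Col5a2, Col11a1, Col11a2 and Col15a1) and 4 without 24L (Col1a2, Col5a2, Col6a3 and Col11a2).

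**Figure D1:**
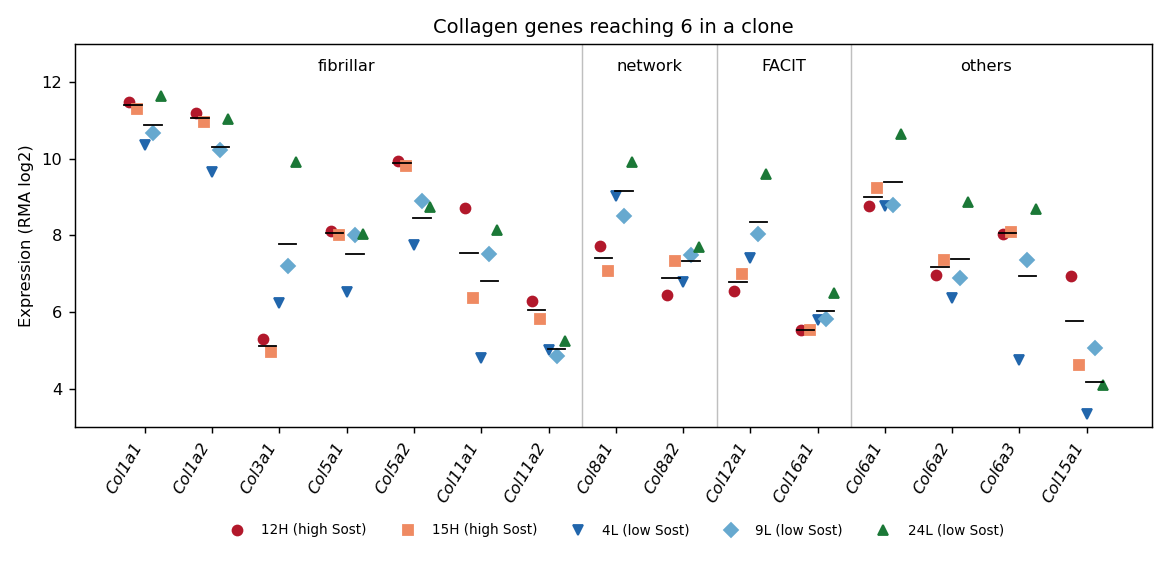
Expression (RMA log2) of the 15 collagen genes that reached 6 in any clone, by class, with 1 point per clone and a line at each group mean. Clone 24L stands above the other 4 clones for Col3a1 (9.92) and clone 4L below them for Col6a3 (4.74).

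Among the fibrillar chains, 9 of 11 had a positive difference between high-Sost and low-Sost clones and the median was 0.54, with 0 genes passing the test. Col1a1, which encodes the major chain of type I collagen, read 11.49 in 12H and 11.30 in 15H, against 10.35 for 4L, 10.67 for 9L and 11.64 for 24L. The groups overlapped, since 24L was the highest clone, and the difference was 0.51 (SE 0.46, limma adjusted p = 0.768). Col1a2, the other chain of type I collagen, read 11.19 and 10.96 in 12H and 15H and 9.66 for 4L, 10.24 for 9L and 11.05 for 24L. Here 12H was the highest and 24L again lay among the high-Sost clones (difference 0.76, SE 0.48, adjusted p = 0.737). For both genes 4L was the lowest clone and 9L the next.

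The 250 bases before the annotated start of Col1a2 are shown because this chain carries bone matrix and its window overlaps no other annotated gene. Capitals mark the CCAAT box, the GC box (GGGCGG) and, in the promoters further on, TATAAA, each read on both strands. The window lies on mouse build GRCm38.p6 at chr6:4505368-4505617, plus strand, from RefSeq.
Col1a2: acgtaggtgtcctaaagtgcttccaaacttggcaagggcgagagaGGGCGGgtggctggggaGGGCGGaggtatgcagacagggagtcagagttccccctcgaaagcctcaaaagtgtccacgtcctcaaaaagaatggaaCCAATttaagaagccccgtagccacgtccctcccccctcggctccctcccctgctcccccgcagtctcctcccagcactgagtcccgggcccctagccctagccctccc
It holds 2 GC boxes and 1 CCAAT box, the latter 109 bases before the start.

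Col3a1 had the widest range of the family. It encodes type III collagen, which forms fine fibrils with type I in soft connective tissue. It read 5.29 in 12H and 4.95 in 15H, against 6.23 for 4L, 7.20 for 9L and 9.92 for 24L. The groups did not overlap, and the low-Sost clones were far apart from each other. The high-Sost mean was 5.12 ± 0.24 (SD, n = 2) and the low-Sost mean 7.78 ± 1.91 (SD, n = 3). At -2.66 (SE 1.29), or 6.31-fold lower in the high-Sost clones, the difference did not pass (adjusted p = 0.737). Without 24L the difference was -1.59, still without overlap.
The window before the start of Col3a1 is given for comparison with that of Col1a2, at chr1:45311288-45311537, plus strand, of GRCm38.p6 from RefSeq.
Col3a1: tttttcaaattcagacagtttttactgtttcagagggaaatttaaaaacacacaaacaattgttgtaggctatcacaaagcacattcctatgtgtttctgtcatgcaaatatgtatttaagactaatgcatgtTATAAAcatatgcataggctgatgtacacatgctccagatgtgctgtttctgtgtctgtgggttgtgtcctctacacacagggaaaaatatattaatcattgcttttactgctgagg
It holds 1 TATAAA, 117 bases before the start, and 0 CCAAT or GC boxes.

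Type V collagen starts fibrils and sets their width. Col5a2 read 9.94 in 12H and 9.83 in 15H, against 7.75 for 4L, 8.90 for 9L and 8.75 for 24L. All low-Sost clones lay below both high-Sost clones, with means of 9.88 ± 0.08 (SD, n = 2) and 8.47 ± 0.62 (SD, n = 3). The difference of 1.41 (SE 0.42), or 2.67-fold, did not pass (adjusted p = 0.737). Col5a1, the main chain of type V, read 8.11 and 8.01 in 12H and 15H, 6.51 for 4L, 8.01 for 9L and 8.04 for 24L. Clone 4L alone was low for Col5a1, and the difference of 0.54 (SE 0.59) was 0.03 without that clone. Col5a3, a minor chain, stayed between 4.95 and 5.31.

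Type XI collagen is the cartilage relative of type V. Col11a1 read 8.72 in 12H and 6.36 in 15H, against 4.79 for 4L, 7.52 for 9L and 8.15 for 24L, so the groups overlapped and the clones of each were far apart. Its difference of 0.72 (SE 1.44) was -0.46 without 12H and -0.30 without 4L. Col11a2 read 6.29 and 5.82 in 12H and 15H and 5.0 for 4L, 4.84 for 9L and 5.23 for 24L, without overlap. The difference of 1.03 (SE 0.21), or 2.04-fold, did not pass (adjusted p = 0.677) and lay under 1 without 12H (0.79) or without 9L (0.94).

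The fibrillar chains that never reached 6 were Col2a1, Col5a3, Col24a1 and Col27a1. Col24a1, named after its values were seen, had the smallest adjusted p of the family (0.572). It read 4.82 and 4.77 in 12H and 15H and 3.93, 3.82 and 4.16 in 4L, 9L and 24L, a difference of 0.82 (SE 0.12). Type XXIV collagen is a minor fibrillar type found in developing bone. Col2a1, the chain of cartilage type II collagen, lay between 4.95 and 5.43 and Col27a1 between 4.83 and 4.89. Of 10 chondrocyte markers 5 lay above the receptor percentile in every clone and 3, Acan, Matn1 and Cnmd, in none. Among those 5, Comp and Snorc held 1 value (3.69) on all arrays, which cannot be told from lack of signal. Sox9, another of the 5, lay between 7.02 and 7.95. Sox6 read 4.72 and 4.26 in 12H and 15H against 3.35, 4.00 and 3.46 in 4L, 9L and 24L. Its groups did not overlap (0.88, SE 0.28), as for 8.26% of all genes in that direction. Hapln1 ran from 3.23 in 4L to 5.64 in 12H, with overlap between the groups. The mean over the chondrocyte list ran from 3.77 in 4L to 4.23 in 12H.

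**Figure D2:**
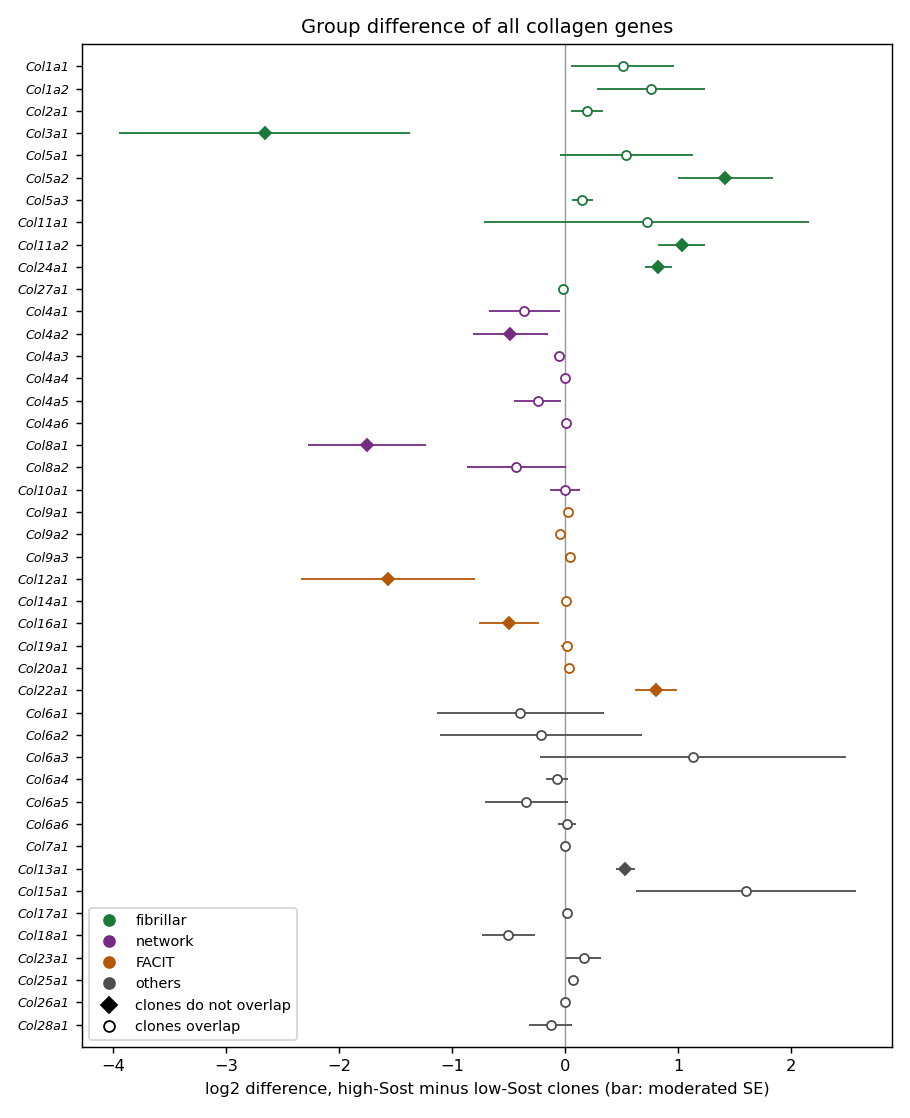
Difference in log2 expression between high-Sost and low-Sost clones for all 44 collagen genes, coloured by class, with bars of 1 moderated SE and filled diamonds where the clones of the groups do not overlap. Col3a1 lies farthest to the left (-2.66) and Col15a1 farthest to the right (1.60), with 10 genes free of overlap.

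Among the network-forming chains, 7 of 9 had a negative difference, 1 was positive and 1 was at 0, with a median of -0.24 and 0 genes passing. Of the negative ones, Col10a1 differed by -0.00045 (SE 0.13) and Col4a3 by -0.05 (SE 0.05). The groups were free of overlap for 2 of 9, Col8a1 and Col4a2, beside 7.75% of all genes lower without overlap. Type VIII collagen forms hexagonal sheets under endothelia and in remodelling vessel walls. Col8a1 read 7.72 in 12H and 7.08 in 15H, against 9.04 for 4L, 8.51 for 9L and 9.91 for 24L. Both high-Sost clones lay below all low-Sost clones, at 7.40 ± 0.45 (SD, n = 2) against 9.15 ± 0.71 (SD, n = 3). The difference of -1.75 (SE 0.52), or 3.37-fold lower, did not pass (adjusted p = 0.737) and ran from -2.07 to -1.37 with a clone left out. Col8a2, the partner chain, read 6.45 and 7.33 in 12H and 15H and 6.78, 7.48 and 7.70 in 4L, 9L and 24L. The groups overlapped, and the difference of -0.43 (SE 0.44) was 0.005 without 12H.
The windows before the starts of both chains of type VIII are shown because the chains belong to the same collagen type. Both are from RefSeq on GRCm38.p6, at chr16:57754738-57754987, minus strand, for Col8a1 and at chr4:126286544-126286793, plus strand, for Col8a2.
Col8a1: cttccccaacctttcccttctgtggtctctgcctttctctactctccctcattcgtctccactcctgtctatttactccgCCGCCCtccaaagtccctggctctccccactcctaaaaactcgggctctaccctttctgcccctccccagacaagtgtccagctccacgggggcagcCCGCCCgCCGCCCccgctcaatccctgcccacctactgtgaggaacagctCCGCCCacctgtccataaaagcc
Col8a2: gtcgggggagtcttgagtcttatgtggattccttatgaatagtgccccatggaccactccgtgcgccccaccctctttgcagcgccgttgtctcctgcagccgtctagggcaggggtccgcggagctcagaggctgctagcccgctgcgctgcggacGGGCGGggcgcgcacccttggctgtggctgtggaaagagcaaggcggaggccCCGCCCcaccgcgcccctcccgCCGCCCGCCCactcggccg
Each holds 4 GC boxes, 2 of them overlapping in Col8a2, and 0 CCAAT boxes or TATAAA.

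The type IV chains, which form the network of basement membranes, stayed under 6 in every clone. Col4a1 lay between 4.20 and 5.23 and Col4a2 between 3.77 and 4.83, and both were highest in 24L. Col4a5 lay between 4.56 and 5.17, and Col4a3 between 3.56 and 3.70. Col4a4, Col4a6 and Col10a1, the last a chain of hypertrophic cartilage, lay under the receptor percentile in every clone, and Col4a4 held 1 value on all arrays. At such levels lack of a difference cannot be told from lack of signal.

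Among the FACIT chains 6 of 9 were positive, with a median of 0.02 and 0 genes passing. Of the positive ones Col9a1, Col9a3, Col14a1, Col19a1 and Col20a1 differed by at most 0.047. Both FACIT chains that reached 6, Col12a1 and Col16a1, were negative. Col12a1, which binds type I fibrils in tendon and periosteum, read 6.54 in 12H and 7.00 in 15H, against 7.40 for 4L, 8.03 for 9L and 9.59 for 24L. The groups did not overlap, and 24L lay 2.39 above the median of the other 4 clones. Its difference of -1.57 (SE 0.77), or 2.96-fold lower, did not pass (adjusted p = 0.737) and was -0.94 without 24L, short of 2-fold. Col16a1 read 5.54 in both high-Sost clones and 5.79, 5.82 and 6.49 in 4L, 9L and 24L, a difference of -0.50 (SE 0.27) without overlap. Col22a1, a type of muscle and tendon junctions named after its values were seen, read 4.60 and 5.01 against 4.18, 4.01 and 3.80 in 4L, 9L and 24L, also without overlap and in the other direction (0.80, SE 0.19). Col9a1, Col9a2, Col9a3 and Col20a1 each had a range of at most 0.11 over the clones. Col14a1, Col19a1 and Col9a3 lay under the receptor percentile in every clone.

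Type VI collagen forms beaded filaments around cells from the products of Col6a1, Col6a2 and Col6a3. Col6a1 read 8.76 in 12H and 9.25 in 15H, against 8.76 for 4L, 8.81 for 9L and 10.64 for 24L. Col6a2 read 6.98 and 7.35 against 6.37, 6.89 and 8.86 in 4L, 9L and 24L. For both genes 24L was more than 1 above every other clone, and the other low-Sost clones lay within or below the high-Sost range. Col6a3 read 8.03 and 8.10 in 12H and 15H, 4.74 for 4L, 7.36 for 9L and 8.70 for 24L. Clone 4L thus lay 3.32 below the median of the others for Col6a3, and 0.27 and 0.79 below it for Col6a1 and Col6a2. The differences were -0.40 (SE 0.74), -0.21 (SE 0.89) and 1.13 (SE 1.35), and none passed (limma adjusted p between 0.811 and 0.985). Without 24L those of Col6a1 and Col6a2 were 0.22 and 0.53, and without 4L that of Col6a3 was 0.03. The later members Col6a4, Col6a5 and Col6a6 stayed between 3.02 and 4.19, with Col6a5 highest in 24L.

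Among the other types, Col15a1, a basement-membrane multiplexin, read 6.93 in 12H and 4.61 in 15H, against 3.35 for 4L, 5.06 for 9L and 4.10 for 24L. Clone 12H alone was high, 2.32 above 15H, and the difference of 1.60 (SE 0.97) was 0.44 without it. Col18a1, the multiplexin that yields endostatin, lay between 4.64 and 5.61 (difference -0.50, SE 0.24). All 4 transmembrane chains had a positive difference, but it was small for Col17a1 (0.02, SE 0.02), Col25a1 (0.07, SE 0.05) and Col23a1 (0.16, SE 0.15). Col13a1, named after its values were seen, read 5.36 and 5.33 in 12H and 15H against 4.72, 4.77 and 4.95 in 4L, 9L and 24L, without overlap (0.53, SE 0.08, adjusted p = 0.599). Col23a1 lay between 5.37 and 5.79, Col17a1 between 3.63 and 3.67, and Col25a1 under the receptor percentile throughout. Col7a1, of anchoring fibrils, and Col26a1 each held 1 value on all arrays, which cannot be told from lack of signal. Col28a1 lay between 2.70 and 3.26.

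Collagen levels also differed between single clones. The spans below run over all 5 clones, so they hold differences between the groups as well as within them. For Col1a1, Col6a1, Col6a2 and Col6a3 the highest clone, 24L, and the lowest, 4L, share the low-Sost label. All 12 collagen genes with a mean of 6 or more spanned at least 1 between the lowest and the highest clone, with a median span of 2.34, whereas 17.2% of all genes with such a mean did so, with a median span of 0.58. Without 4L the count was 9 of 12, beside 10.4% of all genes, and without 24L it was 10 of 12, beside 14.6%. Clone 4L was the lowest clone for 8 of the 12 (Col1a1, Col1a2, Col5a1, Col5a2, Col6a1, Col6a2, Col6a3 and Col11a1), 66.7% against 24.7% of all such genes. Its gap to the next clone was 1 or more for Col5a1, Col6a3 and Col11a1. Clone 24L was the highest for 8 of the 12 (Col1a1, Col3a1, Col6a1, Col6a2, Col6a3, Col8a1, Col8a2 and Col12a1), against 16.5% of all such genes. It led by 1 or more for Col3a1, Col6a1, Col6a2 and Col12a1. Clone 12H was the highest for the other 4, Col1a2, Col5a1, Col5a2 and Col11a1. These are descriptions of single arrays, and both 4L and 24L carry the low-Sost label.

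**Figure D3:**
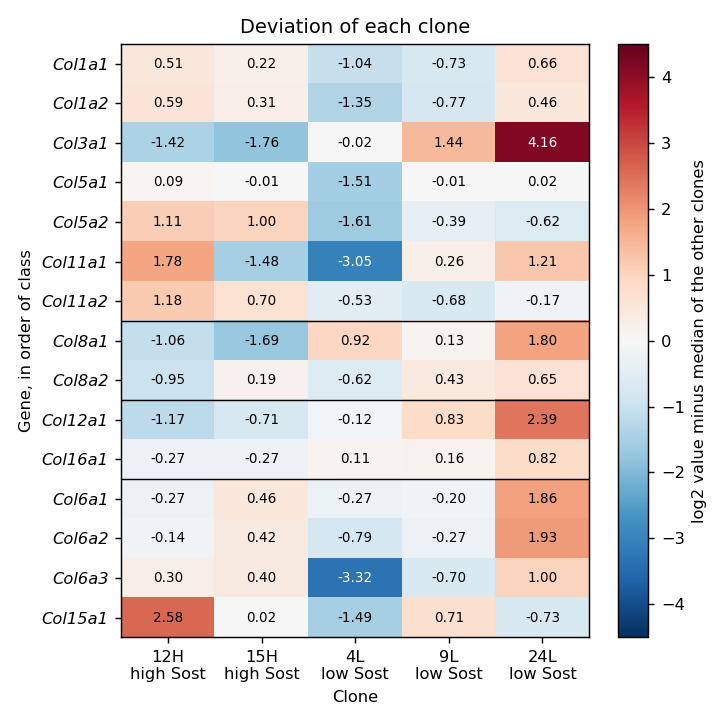
Value of each clone minus the median of the other 4 clones (log2) for the 15 collagen genes that reached 6, with lines between classes. Clone 4L is lowest for Col6a3 (-3.32) and Col11a1 (-3.05), and clone 24L is highest for Col3a1 (4.16) and Col12a1 (2.39).

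Cell type markers also differed between these clones, and their part in the collagen differences was not tested. In bulk RNA, fewer cells of a type and less RNA per cell cannot be told apart. Of 10 osteoblast and osteocyte markers, 7 were at least 2-fold higher in the high-Sost clones without overlap, beside 0.867% of all genes, and 0 passed the test. Pdpn of the same list went the other way, 1.89-fold lower in the high-Sost clones and also without overlap (difference -0.92, SE 0.13). The mean over these 10 osteoblast and osteocyte markers was 4.19 in 4L, against 6.07 in 9L, 5.89 in 24L, 7.86 in 12H and 7.51 in 15H. In 4L the osteoblast factor Sp7 read 2.68 and the matrix gene Ibsp 2.24, where the next lowest clone, 24L, read 7.05 and 8.35. Col1a1 and Col1a2 read 10.35 and 9.66 in 4L. The mean over 10 tendon and fibroblast markers ran from 5.68 in 4L to 6.16 in 24L. Of these, 7 of 10 lay above the receptor percentile in every clone and Tnmd and Dpt in none. This narrow range of means hid members that moved in opposite directions. Pdgfra was at least 2-fold higher in the high-Sost clones without overlap, beside 0.867% of all genes. It read 9.21 and 8.46 in 12H and 15H against 3.79, 6.70 and 7.60 in 4L, 9L and 24L. Scx was at least 2-fold lower without overlap (-1.02, SE 0.31), beside 0.983%. Egr1 (-0.95, SE 0.15), S100a4 (-0.63, SE 0.13) and Mkx (-0.26, SE 0.21) were also lower without overlap. Members of the smooth muscle list went both ways. Des was at least 2-fold higher in the high-Sost clones without overlap (1.26, SE 0.49), beside 0.867% of all genes. Acta2, Tagln and Cnn1 were at least 2-fold lower without overlap, beside 0.983%. The mean over 5 smooth muscle markers was 5.72 and 5.76 in the high-Sost clones and 5.92, 7.11 and 6.95 in 4L, 9L and 24L, with 4 of 5 above the percentile in every clone. Of 6 endothelial and blood markers only Cd68 lay above it in every clone, and the list mean was 3.07 to 3.49. The mean over 4 epithelial markers ran from 3.56 to 3.62, with Epcam under the percentile throughout.

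**Figure D4:**
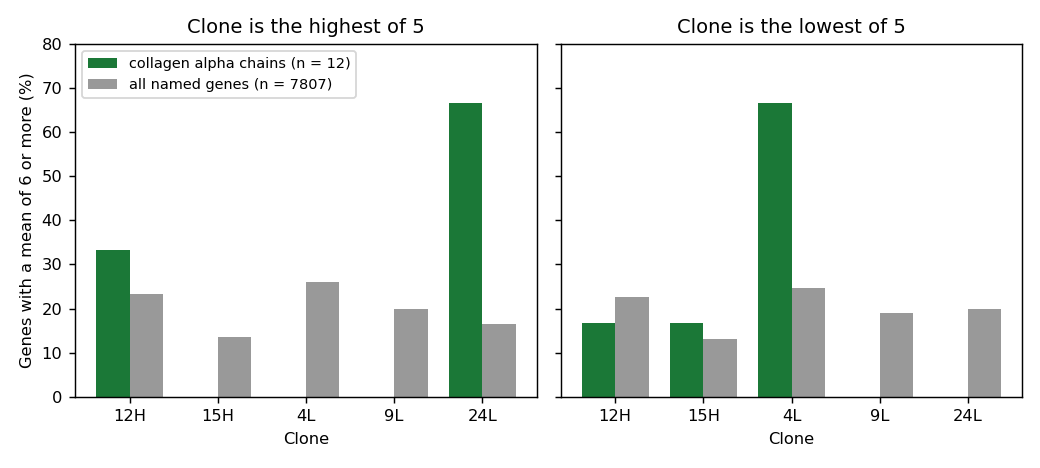
Share of genes with a mean of 6 or more for which each clone is the highest (left) or the lowest (right) of the 5, for 12 collagen genes and all 7807 named genes, ties left out. Among collagen genes 24L takes 66.7% of the highest and 4L 66.7% of the lowest places, against 16.5% and 24.7% among all genes.

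Chains that enter the same trimer were compared by how they ranked the clones, as a description with no test, since such chains share the 5 arrays. For Col6a2 and Col6a3 all 10 pairs of clones stood in the same order, and for Col1a1 with Col1a2 and Col6a1 with Col6a2 this held for 9 of 10. For Col5a1 with Col5a2 the count was 7, with 2 in the opposite order, and for Col8a1 with Col8a2 and Col11a1 with Col11a2 it was 7 against 3. Col6a2 and Col6a3, alike in rank, differed between the groups by -0.21 and 1.13. Neighbouring collagen genes were compared in the same way. Col3a1 and Col5a2 lie next to each other on chromosome 1, and 3 of 10 clone pairs stood in the same order and 7 in the opposite one, with differences of -2.66 and 1.41. Col6a1 and Col6a2, neighbours on chromosome 10, shared the order in 9 of 10. Col4a1 and Col4a2, neighbours on chromosome 8 and chains of 1 trimer, did so in 7, with 2 in the opposite order. The remaining neighbours never reached 6. They gave 4 against 2 (Col9a1 with Col19a1), 3 against 6 (Col6a4 with Col6a5) and 1 against 6 (Col6a5 with Col6a6). Col4a5 with Col4a6 gave 1 against 3 and Col4a3 with Col4a4 0 against 0, since tied clones count for neither.

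Genes that make, process, bind or degrade collagen were counted by the same rules, under which 0.867% of all genes were at least 2-fold higher and 0.983% lower without overlap (1.85% either way). Lists of this length hold few such genes, so a count of 1 is not read as a result. Of 22 measured genes of chain modification and folding 0 passed, and 1 was at least 2-fold apart without overlap, beside 1.85% of all genes. This was Creb3l1, a transcription factor that drives collagen production in osteoblasts, at 10.51 in 12H and 9.87 in 15H against 7.72 for 4L, 8.65 for 9L and 9.39 for 24L (1.61, SE 0.60, adjusted p = 0.737). Its order over the low-Sost clones, lowest in 4L and highest in 24L, was also that of Col1a1 and Col1a2. Col3a1 and Col12a1, which were lower in the high-Sost clones, had the same order. Whether Creb3l1 has a part in any of these levels was not tested. The lysyl hydroxylase Plod1 differed by -0.45 (SE 0.25) and the galactosyltransferase Colgalt1 by 0.41 (SE 0.20). The median of this list was 0.08.

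Of 12 genes of propeptide cleavage and cross-linking 0 passed, while 3 were at least 2-fold higher and 3 lower without overlap, beside 0.867% and 0.983% of all genes (median -0.02). Among the lysyl oxidases, which cross-link collagen, Loxl1 read 5.97 and 6.89 in 12H and 15H against 8.89, 7.55 and 8.48 in 4L, 9L and 24L, a difference of -1.88 (SE 0.56). Loxl2 differed by -1.49 (SE 0.74) and Loxl4 by 1.47 (SE 0.37). Lox itself lay between 9.49 and 9.76 (-0.05, SE 0.11), and Loxl3 differed by 0.25 (SE 0.19), both with overlap. The other genes called by size were Bmp1 (1.17, SE 0.23), Pcolce2 (1.44, SE 0.47) and Pcolce (-1.05, SE 0.23), which are not lysyl oxidases. Of 11 collagen receptors 1 was at least 2-fold higher without overlap, beside 0.867% of all genes. Itga10, an integrin chain that binds collagen, read 9.10 and 8.47 in 12H and 15H against 5.23, 7.71 and 6.04 in 4L, 9L and 24L (2.46, SE 0.88). Its partner Itgb1 differed by 0.41 (SE 0.14), and the platelet receptor Gp6 lay under the receptor percentile in every clone.

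Of 8 collagen-degrading enzymes 1 was higher and 1 lower by that rule, beside 0.867% and 0.983% of all genes, and 0 passed. The collagenase Mmp13 read 3.73 in 12H and 5.81 in 15H and 3.23 or less in the low-Sost clones (1.84, SE 0.73). Its low-Sost values all lay under the receptor percentile, and that of 12H lay just above the percentile of its clone (3.55). The gelatinase Mmp9 differed by -1.09 (SE 0.54) and the membrane collagenase Mmp14 by 0.50 (SE 0.08). Of 15 basement membrane partners of type IV collagen 1, the laminin chain Lama4, was at least 2-fold higher without overlap, at 8.67 and 8.40 against 3.13 for 4L, 8.19 for 9L and 6.97 for 24L (2.44, SE 1.77). Agrin (Agrn) differed by 0.62 (SE 0.21). None of 10 fibril surface partners was called by either rule, with Tnxb at 0.21 (SE 0.10) and Thbs2 at -1.02 (SE 0.66). These counts moved with single clones. Of the degrading enzymes 5 were at least 2-fold apart without overlap when 9L was left out and 1 when 24L was, and of the basement membrane partners 3 without 9L and 2 without 15H. Folding genes numbered 2 without 12H, 15H or 4L, receptors 2 without 4L or 24L, and fibril surface partners 1 without 15H or 9L, while cross-linking genes ran from 4 to 6.

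Promoter windows were found for 35 of the 44 collagen genes, in 38 windows of 250 bases, and none for Col1a1, Col2a1, Col4a3, Col5a2, Col9a3, Col12a1, Col14a1, Col22a1 and Col26a1. The GC box GGGCGG was in 57.9% of the collagen windows and in 32.7% of all 32851 windows of that length. CCAAT was in 34.2% against 33.8% and TATAAA in 13.2% against 12.4%. A match of letters is a description and not a site. Among the 13 windows of collagen genes that reached 6, 9 held a GC box, among them those of Col1a2, Col8a1 and Col8a2, whose group differences were 0.76, -1.75 and -0.43. These 13 windows belong to 12 genes, since Col6a2 has overlapping windows that both hold a GC box.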

How the data were processed

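Biotin-labelled RNA of 5 clones was hybridised to Affymetrix arrays, 1 for each clone, per the labels' protocols. The authors deposited log2 expression for each probe set. Per the submitters' processing notes, affy 1.36.1, R 2.15.1 and RMA were used, in no stated role. RMA equalises arrays, so a shift shared by most genes is removed. The chip definition was not given in the sources used here. Among 25206 probe sets, 23185 have 1 gene, all matched by Entrez number to RefSeq (GRCm38.p6); 2021 unnamed ones stayed out. Each collagen gene has 1 probe set.

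Groups were compared over all 23185 genes with limma 3.58.1 in R 4.3.3 (lmFit, eBayes; 3 residual degrees of freedom, prior 0.70), two-sided, Benjamini-Hochberg adjusted, threshold 0.05. With 2 and 3 clones, exact permutation reaches no p below 0.1. With 1 array per clone, p-values measure the spread between clones. The fit was tested on simulated data. Members and lists were chosen with earlier results of these data known. Collagen genes reaching 6 in any clone, or lower ones deviating by 1 or more, were named with every value (15 genes); of each partner list up to 3 genes without overlap, by size, or else the 2 of smallest p. Other list genes were named after their values were seen. A few listed genes are not analysed here. Alternatives covered a filter on dim genes, normalization, the variance model, limits and each clone left out. Promoters are RefSeq's.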

Additional observations from a re-analysis of the deposited data

How the results depend on the processing

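None of the 15 collagen genes that reached 6 passed with an unmoderated test, a variance trend or the dimmest 30% of genes left out, which cannot alter a difference itself. None passed or changed direction after a further quantile normalization, or after a shift of each array to a common median, which moves every gene alike. Leaving out a clone turned 4 of them: Col11a1 ran from -0.46 to 1.90, Col6a1 from -0.72 to 0.22, Col6a2 from -0.71 to 0.53 and Col8a2 from -0.87 to 0.0045. Without 12H or 15H the lone high-Sost clone is assumed to vary like the others. The cause was not tested. The counts without overlap and 2-fold apart ran from 2 to 4 higher and from 2 to 3 lower with a clone left out. With a 1.5-fold limit 4 were higher, and without a size limit 5 were higher and 5 lower. Collagen genes spanning 1 or more, a count with clones left out that was chosen after seeing the data, ran from 9 to 12. Over all genes, 2 passed as higher after the shift to a common median and 1 with the unmoderated test. At an adjusted p under 0.1, 2 were higher and 1 lower, none a collagen gene. No paired analysis was possible because each clone is in 1 group only.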
